A study of Mus musculus with 12 samples.

Results

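Rp9, Cpeb3, Gpatch8, Fam135a, Lrrc20, Plbd1 and Ptpn3 are 7 protein-coding genes that were followed across the left ventricles of 12 mice by RNA sequencing of poly(A) RNA. They were chosen by the small p values that their counts gave for treated HFpEF hearts against healthy or against untreated HFpEF hearts. They are 7 of 14333 genes tested and of 29564 genes in the deposited tables, and all 7 passed the filter on low counts. Because those p values chose the genes, their count differences between the 3 groups are described below and carry no test. The effective lengths of the genes were not used for the choice and were tested, although they come from the same reads.

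All mice were wild type C57BL6 in the labels, and male mice of the substrain C57BL/6J in the published methods. Each mouse gave 1 library, with 4 per group. Control-Veh mice (C1 to C4) were non-failing and received vehicle. HFpEF-Veh mice (V1 to V4) had heart failure with preserved ejection fraction (HFpEF) brought about by a high-fat diet together with L-NAME, which blocks nitric oxide synthase, and received vehicle. HFpEF-TYA-018 mice (T1 to T4) had the same diet and L-NAME and received the HDAC6 inhibitor TYA-018 by mouth at 15 mg/kg. The series title gives a single dose, and the study describes hearts taken hours after it, while the treatment protocol in the labels gives daily dosing over weeks. According to the same methods they were young adults when bought, and their age when the hearts were taken is not given in the sources used here. The model is made by diet and drug in the whole animal, so no cell type was targeted. The animal numbers of each group lie together, so any effect of housing or handling order cannot be told apart from the group. No treated mouse was without the model, so TYA-018 was not measured in healthy hearts here.

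The 7 genes do not form a pathway. HDAC6 is a mainly cytoplasmic deacetylase, best known for removing acetyl groups from tubulin. Rp9 encodes a nuclear protein linked to the splicing machinery and to a form of inherited retinal degeneration, and it is a substrate of the kinase Pim1. Cpeb3 encodes an RNA-binding protein that controls the translation of messages carrying a cytoplasmic polyadenylation element, and is best known from synapses. Gpatch8 encodes a nuclear protein with a G-patch, a short glycine-rich motif found in many RNA-processing proteins. Ptpn3 encodes a cytosolic tyrosine phosphatase with a FERM domain, which ties proteins to the membrane skeleton, and the ATPase Vcp is among its known substrates. Plbd1 encodes a phospholipase B-like protein of the lysosome that is abundant in myeloid cells. Lrrc20 encodes a small leucine-rich repeat protein, and neither its role nor that of Fam135a in the heart is well known.

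The name under which the genes were grouped, genes shifted mainly in treated hearts, held for only part of them. On the scale of CPM, the counts of a gene relative to its library's total after TMM scaling, Rp9 and Lrrc20 had most of their difference in the treated hearts. Plbd1 was higher at each step from Control-Veh to HFpEF-Veh to HFpEF-TYA-018. Cpeb3, Gpatch8 and Fam135a were already low in HFpEF-Veh, and the treated hearts overlapped with the untreated ones. Ptpn3 was low in HFpEF-Veh, and the treated hearts overlapped with the healthy ones. The genes are therefore referred to below as the 7 chosen genes.

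In the GENCODE M21 annotation of GRCm38, Rp9 (ENSMUSG00000032239) lies on chromosome 9 from 22411047 to 22469743, with 5 transcripts of 525 to 1499 bases. Cpeb3 (ENSMUSG00000039652) lies on chromosome 19 from 37021291 to 37208601, with 12 transcripts of 450 to 5899 bases. An intron of Cpeb3 holds the annotated ribozyme Gm22714, a self-cleaving RNA on the same strand, which shares no exonic base with the gene. Gpatch8 (ENSMUSG00000034621) lies on chromosome 11 from 102475915 to 102556392, with 6 transcripts of 387 to 6871 bases. Fam135a (ENSMUSG00000026153) lies on chromosome 1 from 24011093 to 24100341, with 9 transcripts of 483 to 5536 bases. Among the 7, Lrrc20 (ENSMUSG00000037151, chromosome 10 from 61475801 to 61582791) was the one with a single annotated transcript, of 3216 bases. Plbd1 (ENSMUSG00000030214) lies on chromosome 6 from 136612070 to 136661928, with 3 transcripts of 706 to 2058 bases. Ptpn3 (ENSMUSG00000038764) lies on chromosome 4 from 57190841 to 57301837, with 6 transcripts of 372 to 6369 bases. Lrrc20 is on the plus strand and the other genes are on the minus strand.

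Reads of 6 of the 7 genes could be assigned almost without sharing. Their estimated counts were whole numbers within 0.01 in all 12 libraries. The counts of Rp9 were not whole in 12 of 12 libraries, so some of its reads also fitted transcripts of other genes. Of the 31-base stretches in Rp9 transcripts, 6.84% occurred in transcripts of other genes on either strand, and 5.88% in 9530077C05Rik, which lies on the opposite strand and shares 237 exonic bases with it. 9530077C05Rik had mean levels of 0.199, 0.325 and 0.130 CPM in healthy, untreated HFpEF and treated hearts, below every Rp9 value. The shared share was 4.17% for Lrrc20, 1.10% for Cpeb3 and at most 0.157% for the other 4. The kit marks strand, and the strand setting of the counting is not given in the sources used here, so the Rp9 level remains uncertain where the transcripts overlap. Cpeb3, Lrrc20 and Ptpn3 share 116, 89 and 30 exonic bases with antisense genes that were not analysed here.

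The promoters of Cpeb3, Gpatch8 and Fam135a are shown because these 3 genes had nearly the same pattern over the libraries. Each sequence is from RefSeq (GRCm38.p6) and runs 5′ to 3′ on the gene's strand, from 250 bases before to 50 after the start site. Capitals mark GC boxes, the letters GGGCGG on either strand, which were the only matches in these windows among the 8 motifs searched. Cpeb3 has 3 start sites in RefSeq and the first is shown, at chr19:37207422-37207721 (minus). Gpatch8 is at chr11:102556109-102556408 (minus) and Fam135a at chr1:24100292-24100591 (minus).
Cpeb3: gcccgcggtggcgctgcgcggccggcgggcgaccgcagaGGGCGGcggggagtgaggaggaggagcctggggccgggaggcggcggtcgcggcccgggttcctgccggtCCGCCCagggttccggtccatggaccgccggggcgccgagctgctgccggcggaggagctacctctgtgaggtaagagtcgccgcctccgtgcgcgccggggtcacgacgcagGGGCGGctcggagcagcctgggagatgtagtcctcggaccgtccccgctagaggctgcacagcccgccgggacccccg
Gpatch8: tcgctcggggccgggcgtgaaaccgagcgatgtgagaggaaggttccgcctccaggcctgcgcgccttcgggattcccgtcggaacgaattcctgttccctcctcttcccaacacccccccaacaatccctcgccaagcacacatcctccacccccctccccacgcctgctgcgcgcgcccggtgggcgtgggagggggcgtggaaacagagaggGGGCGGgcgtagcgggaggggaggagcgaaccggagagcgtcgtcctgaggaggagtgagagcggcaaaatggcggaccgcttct
Fam135a: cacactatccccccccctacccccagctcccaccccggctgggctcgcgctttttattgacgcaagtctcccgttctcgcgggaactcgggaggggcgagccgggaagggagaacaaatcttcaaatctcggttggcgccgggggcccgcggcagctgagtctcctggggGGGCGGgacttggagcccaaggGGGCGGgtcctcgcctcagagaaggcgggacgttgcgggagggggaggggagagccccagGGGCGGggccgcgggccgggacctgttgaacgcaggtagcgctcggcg

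These promoters held 3, 1 and 3 GC boxes in the order Cpeb3, Gpatch8 and Fam135a. Their GC content was 77.7%, 68.0% and 70.7%, against a median of 52.7% over all 32851 promoters in the table. The GC box was also found 4 times in Lrrc20, and 35.7% of all promoters held it, so the match does not single these genes out. The NFY motif CCAAT was found 2 times in Lrrc20 and 1 time in Ptpn3, and 37.4% of all promoters held it. Plbd1 had 1 E-box, CACGTG, whose first base is 44 bases after the start, and 7.15% of all promoters held it. The later start sites of Cpeb3 had 1 match each to the MEF2 motif, which 3.69% of promoters held. The last of them also had a GC box and a nuclear receptor half-site (AGGTCA), and 16.3% of promoters held the half-site. The motifs D-box (TTATGNAA), CRE (TGACGTCA) and AP-1 (TGANTCA) were not in any of these windows, and 3.38%, 1.79% and 7.81% of promoters held them. Promoters were matched for 6 of the 7 genes, all except Rp9. Both strands were searched, and a match is a run of letters, not a measured binding site.

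The libraries held 61.2 M to 83.9 M estimated counts, with T1 the deepest. Mitochondrially encoded genes took 37.0% to 40.6% of counts in Control-Veh, 35.4% to 41.2% in HFpEF-TYA-018 and 43.1% to 47.7% in HFpEF-Veh, which stood apart. The summed level of 5 red cell genes was 4785 to 14139 CPM in HFpEF-Veh, while it reached at most 2309 CPM in healthy and 3572 CPM in treated hearts. The 5 heart muscle markers, Myh6, Myl2, Tnnt2, Tnni3 and Actc1, summed to 21885 to 32120 CPM over the 12 libraries. The atrial markers summed to at most 244 CPM. With each gene set against its own mean over the libraries, the median log2 effective length was lowest in T1 (-0.16) and highest in V4 (0.11). The part of these library measures in the results below was not tested.

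Rp9 had the largest step of the 7 between untreated and treated HFpEF hearts. Its level was 9.29, 14.1, 11.3 and 11.4 CPM in C1 to C4, and 8.25, 10.2, 8.75 and 9.01 CPM in V1 to V4. It was 31.7, 31.6, 27.8 and 27.5 CPM in T1 to T4. All 4 treated hearts lay above all 8 others, and 3 of the 4 untreated HFpEF hearts lay just below the lowest healthy one. The group means were 11.5 ± 1.96, 9.05 ± 0.826 and 29.7 ± 2.31 CPM (SD, n = 4). HFpEF-TYA-018 differed from HFpEF-Veh by a log2 fold change of 1.71 ± 0.116 (SE), or 3.28-fold. Against Control-Veh the log2 fold change was 1.37 ± 0.114, or 2.58-fold. Ordered by p, Rp9 was gene 1 of 14333 in the first comparison and gene 3 in the second, which is how it was chosen.

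Lrrc20 followed with a smaller step in the same place. Its level was 16.6, 17.9, 18.2 and 17.02 CPM in Control-Veh and 19.5, 18.9, 20.97 and 19.01 CPM in HFpEF-Veh. In HFpEF-TYA-018 it was 25.9, 25.2, 25.8 and 23.7 CPM. In CPM the 3 groups did not overlap, unlike in TPM, and the gap between treated and untreated HFpEF hearts was wider than that between untreated HFpEF and healthy hearts. The group means were 17.4 ± 0.743, 19.6 ± 0.962 and 25.2 ± 0.986 CPM (SD, n = 4). The log2 fold changes were 0.36 ± 0.0563 (SE) against HFpEF-Veh and 0.53 ± 0.0563 against Control-Veh. The difference of HFpEF-Veh from Control-Veh, 0.17 ± 0.0564, was 31.6% of the latter on the log2 scale.

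In CPM, Plbd1 was higher in 2 steps. It was at 25.6, 24.2, 27.3 and 25.3 CPM in Control-Veh, and at 34.95, 33.5, 32.2 and 30.5 CPM in HFpEF-Veh. In HFpEF-TYA-018 it was at 41.9, 35.6, 37.2 and 41.5 CPM. The groups did not overlap, but T2 lay close above V1. The means were 25.6 ± 1.27, 32.8 ± 1.89 and 39.05 ± 3.11 CPM (SD, n = 4). HFpEF-Veh was above Control-Veh by a log2 fold change of 0.36 ± 0.067 (SE), and HFpEF-TYA-018 was above HFpEF-Veh by 0.25 ± 0.0667. With the deposited effective lengths as an offset in the model, the second difference was -0.019 ± 0.0956. In TPM, which also divides by length but is scaled to the total of all genes, the treated hearts lay above the untreated ones without overlap (11.9 to 18.1 against 9.51 to 11.4 TPM). On log2(TPM + 1) the difference was 0.38, but the median of all tested genes was also higher in treated hearts, by 0.17. Whether a second step was seen therefore depended on the scale, and the TPM ranges alone do not show it. Since Plbd1 is abundant in myeloid cells, the summed level of 9 myeloid markers is given beside it. It was 68.0 to 99.9 CPM in healthy, 100.2 to 134.6 CPM in untreated HFpEF and 76.0 to 101.9 CPM in treated hearts. Of these 9 markers 5 rose and 2 fell in HFpEF-Veh, where 21.2% of all genes were called. After TYA-018 1 of the 9 fell, where 19.3% of all genes were called. The part of these markers in the level of Plbd1 was not tested. In bulk tissue, fewer cells of a type and less RNA per cell cannot be told apart.

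**Figure D1:**
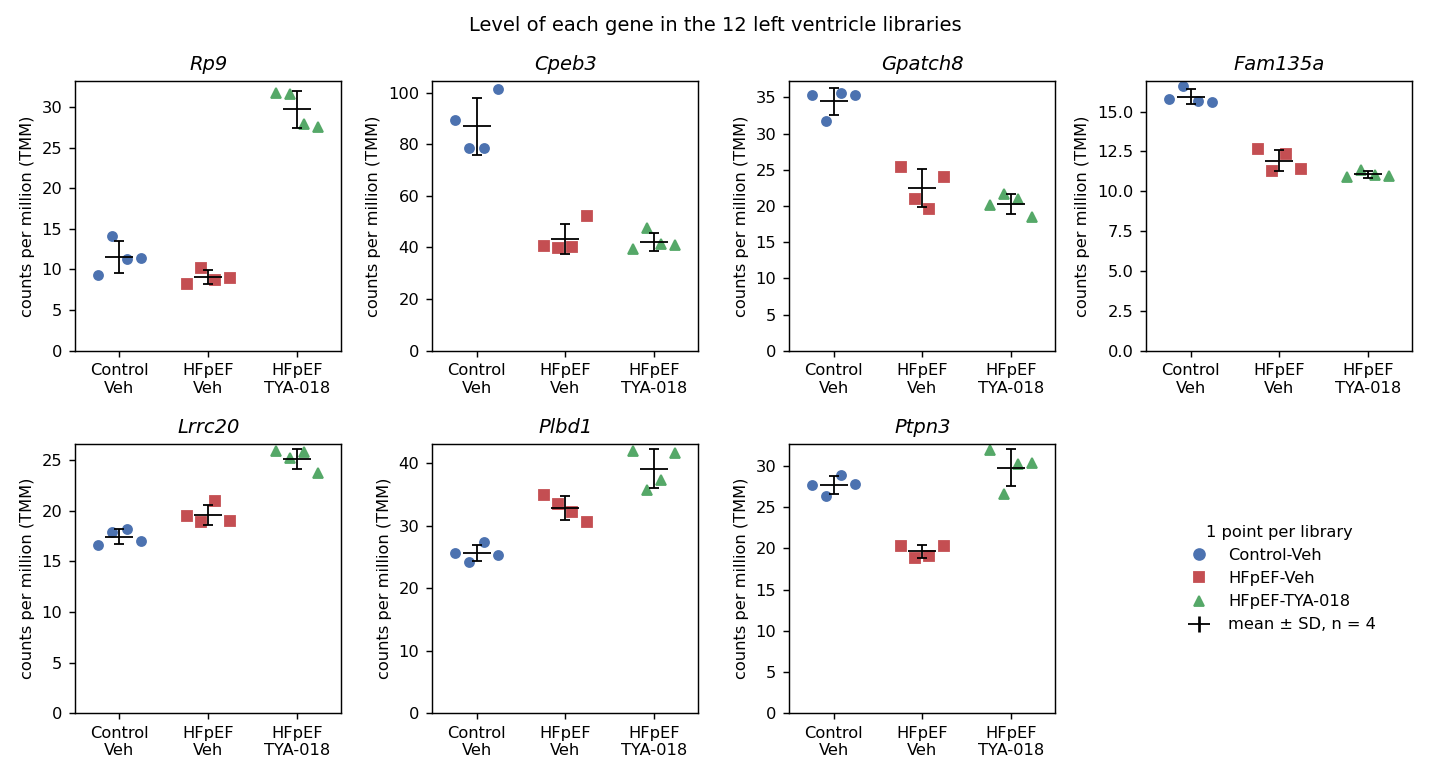
Level of the 7 genes in each library, in CPM (y axes from 0), with 1 point per library and the mean ± SD of 4 libraries per group. Rp9 sits at 27.5 to 31.7 CPM in HFpEF-TYA-018 and at 14.1 CPM or less elsewhere, while Cpeb3, Gpatch8 and Fam135a are low in HFpEF-Veh and HFpEF-TYA-018 alike and Ptpn3 is low in HFpEF-Veh.

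Cpeb3 was lower in the hearts of both HFpEF groups than in healthy hearts. It was at 89.4, 78.4, 78.5 and 101.3 CPM in Control-Veh, and at 40.7, 39.97, 40.2 and 52.0 CPM in HFpEF-Veh. In HFpEF-TYA-018 it was at 39.3, 47.4, 41.2 and 41.01 CPM. In CPM all 8 HFpEF hearts lay below all healthy hearts, and the treated and untreated ones overlapped. The means were 86.9 ± 10.9, 43.2 ± 5.87 and 42.2 ± 3.55 CPM (SD, n = 4). The log2 fold change of HFpEF-TYA-018 against Control-Veh was -1.04 ± 0.108 (SE), and that of HFpEF-Veh against Control-Veh was -1.01 ± 0.108, or 96.7% of it. Treated and untreated HFpEF hearts differed by -0.03 ± 0.107, and by 0.42 ± 0.122 in the other direction with the effective lengths as an offset.

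Gpatch8 and Fam135a had the same order of groups. Gpatch8 was at 35.4, 31.7, 35.6 and 35.3 CPM in Control-Veh, at 25.3, 20.9, 19.6 and 24.1 CPM in V1 to V4, and at 20.2, 21.6, 20.98 and 18.4 CPM in T1 to T4. In CPM healthy hearts lay above all others, and the 2 HFpEF groups overlapped. In TPM, Gpatch8 in T1 (1.80) lay within the range of Control-Veh (1.42 to 2.00). Its log2 fold changes against Control-Veh were -0.76 ± 0.0844 (SE) in HFpEF-TYA-018 and -0.62 ± 0.0843 in HFpEF-Veh, or 80.8% of the former. Fam135a was at 15.8, 16.6, 15.6 and 15.6 CPM in Control-Veh, at 12.6, 11.3, 12.3 and 11.4 CPM in V1 to V4, and at 10.9, 11.35, 11.02 and 10.97 CPM in T1 to T4. Its treated hearts were the most alike of the 3 groups, and T2 lay above the lowest HFpEF-Veh heart. The log2 fold changes of Fam135a against Control-Veh were -0.53 ± 0.0566 in HFpEF-TYA-018 and -0.42 ± 0.0566 in HFpEF-Veh, or 79.5% of the former. Between treated and untreated HFpEF hearts the differences were -0.15 ± 0.0844 for Gpatch8 and -0.11 ± 0.0567 for Fam135a. In the order of p for HFpEF-TYA-018 against Control-Veh, Cpeb3, Gpatch8 and Fam135a were genes 7, 13 and 11 of 14333, and against HFpEF-Veh they were genes 12633, 6210 and 5614.

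Ptpn3 had a different arrangement, with HFpEF-Veh apart from both other groups. It was at 27.7, 26.3, 28.9 and 27.8 CPM in Control-Veh, at 20.4, 18.9, 19.1 and 20.3 CPM in V1 to V4, and at 31.9, 26.6, 30.3 and 30.3 CPM in T1 to T4. The untreated HFpEF hearts lay below the 8 others, and the treated hearts overlapped with the healthy ones through T2. The means were 27.7 ± 1.06, 19.7 ± 0.763 and 29.8 ± 2.26 CPM (SD, n = 4). HFpEF-TYA-018 was above HFpEF-Veh by a log2 fold change of 0.60 ± 0.0619 (SE), and HFpEF-Veh was below Control-Veh by -0.50 ± 0.0619. HFpEF-TYA-018 and Control-Veh differed by 0.10 ± 0.0614, and by 0.30 ± 0.114 with the effective lengths as an offset.

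**Figure D2:**
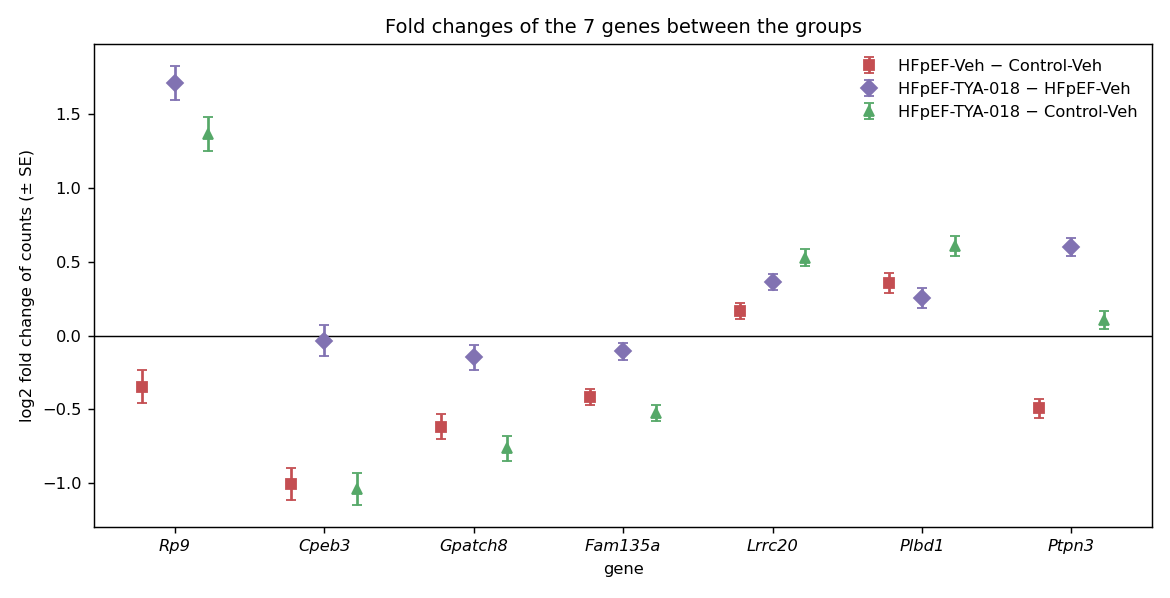
Log2 fold changes of counts (± SE, edgeR) between the 3 pairs of groups for each gene. Rp9 has values of 1.71 and 1.37 in the comparisons with treated hearts, while for Cpeb3, Gpatch8 and Fam135a the values against Control-Veh lie close together in HFpEF-Veh and HFpEF-TYA-018.

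In counts, the groups did not overlap for 4 of the 7 genes in HFpEF-TYA-018 against HFpEF-Veh, for 6 in HFpEF-TYA-018 against Control-Veh and for 6 in HFpEF-Veh against Control-Veh. Over all genes tested, the groups did not overlap for 25.1%, 14.8% and 23.5% in the same comparisons, and edgeR called 19.3%, 5.86% and 21.2% at an adjusted p under 0.05. The first 2 of these comparisons chose the genes and the third is the difference between them, so nothing is read from these counts.

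TPM divides counts by effective length and by the total of all genes, and here the scale changed the picture for some of the 7. On log2(TPM + 1), the median of all tested genes was 0.17 higher in HFpEF-TYA-018 than in HFpEF-Veh, 0.08 higher than in Control-Veh, and -0.07 in HFpEF-Veh against Control-Veh. Rp9 was 1.66 higher after TYA-018 relative to that median, close to its value in counts. Gpatch8 and Fam135a were -0.02 and -0.01 relative to it, so their positive differences of 0.15 and 0.16 on this scale were close to that median. The added 1 makes differences smaller for genes near 1 TPM. The ratio of mean TPM in treated to untreated HFpEF hearts was 1.26 for Gpatch8 and 1.21 for Fam135a. Lrrc20 was 0.26 above the median of all tested genes, but its groups overlapped in TPM, with 1.36 TPM in V3 and 1.22 TPM in T4. HFpEF-Veh also overlapped with Control-Veh for Lrrc20. Cpeb3 was 0.35 above it. Its TPM was 0.969, 0.979, 1.15 and 1.07 in V1 to V4 and 2.91, 2.10, 1.65 and 1.24 in T1 to T4, without overlap, although the counts of the groups overlapped. In Control-Veh it was 2.67 to 3.56 TPM.

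**Figure D3:**
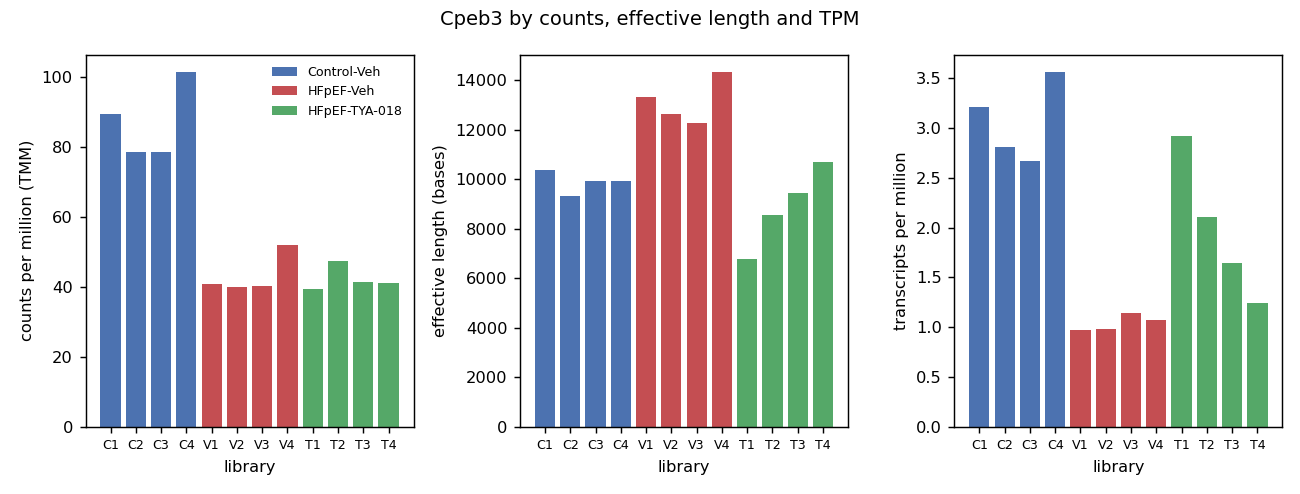
Cpeb3 in each library as CPM (left), effective length in bases (middle) and TPM (right), with bars from 0 and 1 bar per library. The counts are alike in HFpEF-Veh and HFpEF-TYA-018, the lengths are 12279 to 14324 bases in HFpEF-Veh and 6792 to 10709 bases in HFpEF-TYA-018, and the TPM values of T1 to T4 lie above those of V1 to V4.

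Ranked by TPM, which is per length, Plbd1 had the highest level of the 7 in Control-Veh (8.36 ± 0.778 TPM, SD, n = 4). Rp9 (3.92 ± 1.11 TPM) and Cpeb3 (3.06 ± 0.404 TPM) followed and overlapped with each other. Fam135a was at 2.10 ± 0.130 TPM and Gpatch8 at 1.64 ± 0.273 TPM, with overlap. Apart from these followed Lrrc20 at 1.01 ± 0.0541 TPM and Ptpn3 at 0.616 ± 0.0658 TPM. In HFpEF-TYA-018, Plbd1 (13.7 ± 2.96 TPM) and Rp9 (12.2 ± 3.66 TPM) overlapped at the top. Cpeb3 (1.98 ± 0.718 TPM), Lrrc20 (1.75 ± 0.484 TPM), Fam135a (1.52 ± 0.23 TPM), Gpatch8 (1.15 ± 0.462 TPM) and Ptpn3 (0.925 ± 0.363 TPM) overlapped from neighbour to neighbour. T1 had the highest TPM of its group for Rp9, Cpeb3, Gpatch8, Lrrc20, Plbd1 and Ptpn3. Both orders of genes rest on the effective lengths. Their mean ran from 0.519 times the longest annotated transcript in Fam135a to 2.37 times in Ptpn3. The order of TPM may therefore differ from the order of transcript numbers.

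Effective length is the number of start positions that salmon reckons a fragment could have had in a gene's transcripts, weighted by their use and corrected for sequence, GC and position bias. It is no measured transcript length. The mean effective length exceeded the longest annotated transcript for Cpeb3 (10633 against 5899 bases), Gpatch8 (7529 against 6871), Lrrc20 (5988 against 3216) and Ptpn3 (15095 against 6369). It was below it for Rp9 (1042 against 1499), Fam135a (2875 against 5536) and Plbd1 (1077 against 2058). Among 13725 tested genes with a symbol in the annotation, 39.7% also exceeded their longest transcript. The effective length of Lrrc20, with its 1 transcript, still ranged from 5378 to 6982 bases between libraries.

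The lengths were compared with limma on the log2 scale, after centring each library on the median of all tested genes. In HFpEF-TYA-018 against HFpEF-Veh, 2 of the 7 genes were called, where 11% of all tested genes were. In HFpEF-TYA-018 against Control-Veh limma called 0 of the 7, where 0.00698% of all genes were called. An unadjusted limma p under 0.05 was found for 0 of the 7, and for 1349 of all 14333 genes. In HFpEF-Veh against Control-Veh limma also called 0, where 0.0349% of all genes were called. There an unadjusted limma p under 0.05 was found for 1 of the 7, and for 2438 of all 14333 genes.

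Cpeb3 became shorter in effective length after TYA-018. It was 13334, 12628, 12279 and 14324 bases in V1 to V4 and 6792, 8539, 9435 and 10709 bases in T1 to T4, without overlap. In Control-Veh it was 10379, 9313, 9948 and 9916 bases, which lies below all of HFpEF-Veh and within the range of HFpEF-TYA-018. After centring, the log2 difference between HFpEF-TYA-018 and HFpEF-Veh was -0.43 ± 0.086 (SE, limma adjusted p 0.0224). The call was lost without V4 (limma adjusted p 0.0702) or without T2 (limma adjusted p 0.0813), and the difference stayed between -0.50 and -0.35 when any 1 of the 12 libraries was left out. HFpEF-Veh against Control-Veh gave 0.32 ± 0.086 (limma adjusted p 0.209) and HFpEF-TYA-018 against Control-Veh -0.11 ± 0.086 (limma adjusted p 0.619).

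Plbd1 was longer after TYA-018 relative to its libraries. Its effective length was 1112, 1081, 986 and 947 bases in V1 to V4 and 1164, 1135, 1120 and 1097 bases in T1 to T4, so the groups overlapped before centring. After centring they did not, with log2 values of -1.58 to -1.33 against -1.28 to -1.002, and the difference was 0.29 ± 0.0757 (SE, limma adjusted p 0.0433). Without centring the difference was 0.13 and the call was lost (limma adjusted p 0.117). The call was also lost without any 1 of C1, C2, C3, C4, V2, V3, V4, T1, T2 and T3 (limma adjusted p 0.0512 to 0.114). It held without V1 or without T4, so this call is at the edge of the threshold.

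The effective lengths of the other 5 genes were not called in any comparison. For Rp9, with the largest rise in counts, the log2 difference after TYA-018 was -0.01 ± 0.0858 (SE, limma adjusted p 0.953), and the libraries ranged from 847 to 1185 bases over the 3 groups. Lrrc20 differed by 0.07 ± 0.0755 (limma adjusted p 0.567), Gpatch8 by 0.05 ± 0.104 (limma adjusted p 0.806) and Fam135a by 0.07 ± 0.157 (limma adjusted p 0.815). Ptpn3 differed by -0.14 ± 0.0872 from HFpEF-Veh and by -0.18 ± 0.0872 from Control-Veh (limma adjusted p 0.342 and 0.534). The ratio of the longest to the shortest value over the 12 libraries was 2.11 for Cpeb3, 1.64 for Gpatch8, 1.63 for Ptpn3, 1.49 for Fam135a, 1.40 for Rp9, 1.30 for Lrrc20 and 1.23 for Plbd1. Its median over all tested genes was 1.43.

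**Figure D4:**
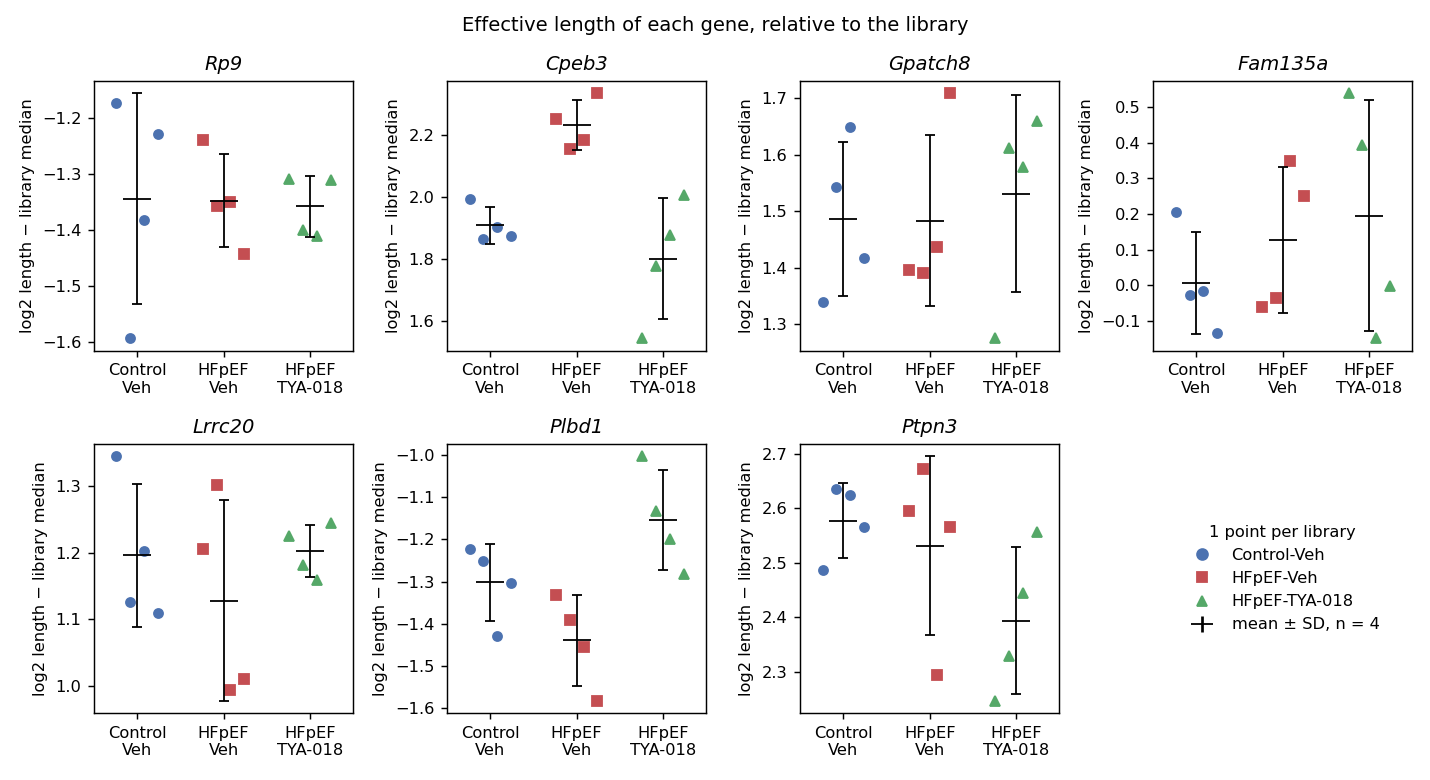
Log2 effective length of each gene minus the median of all tested genes in the same library, with 1 point per library and the mean ± SD of 4 libraries per group. Cpeb3 lies at 2.16 to 2.34 in untreated and at 1.54 to 2.01 in treated HFpEF hearts, and Plbd1 lies higher in HFpEF-TYA-018 than in HFpEF-Veh.

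Over the 12 libraries, the log2 CPM of the 7 genes fell into a few patterns, given here as a description since the genes were chosen on these libraries and the groups themselves make genes move together. Pearson's r was 0.94 for Cpeb3 with Gpatch8, 0.91 for Cpeb3 with Fam135a and 0.93 for Gpatch8 with Fam135a. Plbd1 ran against these 3, with r of -0.89, -0.88 and -0.91. Rp9 was most like Lrrc20 (r 0.85). Lrrc20 itself was most like Plbd1 (r 0.88), and had r of -0.74, -0.80 and -0.79 with Cpeb3, Gpatch8 and Fam135a. Ptpn3 was most like Rp9 (r 0.70) and had r between 0.11 and 0.34 with the other 5.

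**Figure D5:**
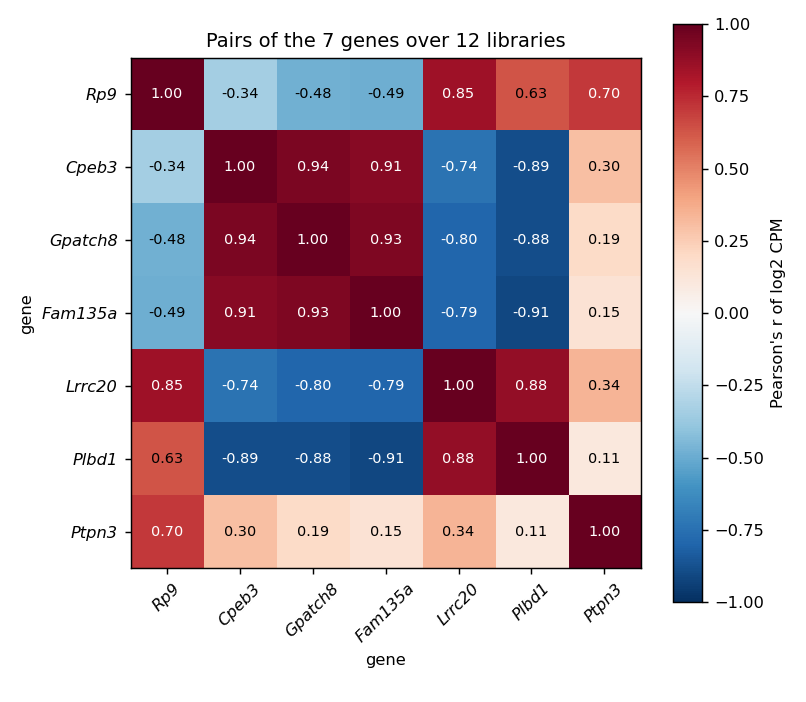
Pearson's r of log2 CPM between each pair of the 7 genes over the 12 libraries, from -1 (blue) to 1 (red). Cpeb3, Gpatch8 and Fam135a form a block with r of 0.91 to 0.94, and Plbd1 has r of -0.91 to -0.88 with each of them.

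For each of the 7, the 3 tested genes with the highest r over the 12 libraries were named. Rp9 was most like Pebp1 (r 0.97), Akr1b3 (r 0.97) and Dynll2 (r 0.96). Pebp1 averaged 192 CPM in untreated and 261 CPM in treated HFpEF hearts, a smaller step than that of Rp9. Lrrc20 was most like Hadhb (r 0.97), a subunit of the mitochondrial trifunctional protein of fatty acid oxidation, Bambi (r 0.96), a pseudoreceptor that dampens TGF-beta signalling, and Psap (r 0.96), the precursor of the saposins of the lysosome. Plbd1 was most like Tmx2 (r 0.96), Gna12 (r 0.95) and Josd1 (r 0.95). Cpeb3 was most like Bclaf1 (r 0.97), Ptpn13 (r 0.96) and Zfp160 (r 0.95). Gpatch8 was most like Cpsf7 (r 0.96), Mbd6 (r 0.96) and the splicing factor Srsf11 (r 0.96). Fam135a was most like Dlg3 (r 0.97), the ion channel and kinase Trpm7 (r 0.95) and the splicing factor Rbm25 (r 0.94). Ptpn3 was most like Gaa (r 0.97), the lysosomal enzyme that breaks down glycogen, the translation factor Eef1a2 (r 0.95) and Rpusd4 (r 0.95).

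The relatives of the 7 genes were tested as ordinary genes in the edgeR fit. Of 96 listed, 90 were tested. In HFpEF-TYA-018 against HFpEF-Veh 16 were called (7 higher, 9 lower), or 17.8%, where 19.3% of all genes were. In HFpEF-TYA-018 against Control-Veh 7 were called, all lower, or 7.78% against 5.86%. In HFpEF-Veh against Control-Veh 20 were called (5 higher, 15 lower), or 22.2% against 21.2%. These shares were near those of all genes, and the median log2 fold changes of the list were 0.02, -0.03 and -0.05. Of the 30 calls of 19 relatives named below, 20 were lost with the effective lengths as an offset and 23 on log2(TPM + 1). The 5 that held in every alternative and without any 1 library were those of Son, Lrrc4b and Ptpn13 in HFpEF-Veh against Control-Veh and of Lrrc24 and Vcp after TYA-018.

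Among 9 retinitis pigmentosa splicing genes and Pim1 partners of Rp9, 1 was called after TYA-018, where 19.3% of all genes were. It was Pim1, the kinase of which Rp9 is a substrate, which was at 11.7 ± 1.38 CPM in untreated hearts and fell to 8.18 ± 1.19 CPM (a log2 difference of -0.51, edgeR adjusted p 0.0207), with the call lost without any 1 of T1, T2, T3 and V4 (edgeR adjusted p 0.0548 to 0.0633). The median log2 fold change of this list after TYA-018 was 0.003. The closest relative of Plbd1, Plbd2, was at 39.8, 39.7 and 42.2 CPM in healthy, untreated HFpEF and treated hearts, and neither it nor Plb1 was called (edgeR adjusted p 0.199 to 0.978). Fam135b, the relative of Fam135a, had 0 counts in all 12 libraries.

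Of 12 tested genes of the CPEB family and its cofactors, 2 were higher and 2 lower after TYA-018. Over all genes 19.3% were called. Cpeb1, the founding member, was at 22.5 ± 2.07, 14.9 ± 0.366 and 20.7 ± 4.22 CPM (SD, n = 4) in the same order of groups. Like Cpeb3 it was lower in untreated HFpEF hearts than in healthy ones (a log2 difference of -0.60, edgeR adjusted p 0.00792). It rose after TYA-018 (0.48, edgeR adjusted p 0.024), but that call rested on each of V2, V3, V4, T1, T2 and T3, since without any 1 of them the edgeR adjusted p was 0.052 to 0.0736. Sympk, a scaffold of the polyadenylation machinery, fell in HFpEF-Veh (-0.26, edgeR adjusted p 0.00924) and rose after TYA-018 (0.23, edgeR adjusted p 0.0182, or 0.0548 without T1). Tob1, an antiproliferative factor that binds Cpeb3, fell after TYA-018 (-0.46, edgeR adjusted p 0.021, lost without any 1 of V3, V4, T1 and T2 at 0.0503 to 0.0634). Papd4, a poly(A) polymerase, fell against HFpEF-Veh and Control-Veh (-0.54 and -0.62, edgeR adjusted p 0.0251 and 0.0325). Leaving out any 1 of V1, V2, T1 and T2 ended the first of these, and the second was lost without any 1 of C1, C2, C3, C4, T1, T2 and T3, at an edgeR adjusted p between 0.0547 and 0.0919 for the 2 calls.

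Of 23 G-patch genes, 6 were lower and 1 higher in untreated HFpEF than in healthy hearts, and 3 were lower in treated than in healthy hearts, where 21.2% and 5.86% of all genes were called. Son, a scaffold of nuclear speckles, was at 183 ± 15.5, 144 ± 8.11 and 140 ± 13.9 CPM in healthy, untreated HFpEF and treated hearts, the order seen in Gpatch8. Its log2 fold changes against Control-Veh were -0.34 in untreated and -0.38 in treated HFpEF hearts (edgeR adjusted p 0.0139 and 0.0235, the second lost without C4 or T3 at 0.0591 or 0.0557). The splicing regulators Rbm6 and Sugp1 were also lower in HFpEF-Veh (-0.19 and -0.39, edgeR adjusted p 0.0307 and 0.0107) and in HFpEF-TYA-018 (-0.24 and -0.34, edgeR adjusted p 0.029 and 0.0497). The calls of Rbm6 were lost without any 1 of C2, C4, V1, V2, V3 and V4 for the first and of C2, C4, T2, T3 and T4 for the second (edgeR adjusted p 0.0505 to 0.0828). The second call of Sugp1 was lost when C2, C3, C4, T1, T2, T3, V1, V3 or V4 was left out, at an edgeR adjusted p of 0.0563 to 0.134. Gpkow fell after TYA-018 (-0.31, edgeR adjusted p 0.0144), a call that held without any 1 library but was lost with the effective lengths as an offset and on log2(TPM + 1).

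Of 37 tested LRRC genes, named like Lrrc20 for their leucine-rich repeats, 3 rose and 4 fell after TYA-018. Over all genes 19.3% were called. Lrrc8c and Lrrc8b, subunits of volume-regulated anion channels, fell. Lrrc8c went from 65.1 ± 5.71 to 37.9 ± 5.75 CPM, and Lrrc8b from 8.05 ± 1.51 to 4.76 ± 0.750 CPM (log2 differences of -0.78 and -0.76, edgeR adjusted p 0.00254 and 0.013). Both had risen in HFpEF-Veh (0.67 and 0.72, edgeR adjusted p 0.00394 and 0.0144). Lrrc24 rose after TYA-018 from 29.2 to 40.6 CPM (0.47, edgeR adjusted p 0.0117). These calls held without any 1 library, and those of Lrrc8c and Lrrc8b were lost on log2(TPM + 1). Lrrc4b was lower than Control-Veh in untreated and in treated HFpEF hearts (-1.36 and -0.76, edgeR adjusted p 0.000742 and 0.0279), the second call being lost without any 1 of C2, C3, C4 and T2 (edgeR adjusted p 0.055 to 0.0772). It was higher after TYA-018 (0.60, edgeR adjusted p 0.0338, lost without any 1 of V1, V2, V3, V4, T1, T2 and T4 at 0.0574 to 0.106).

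Of 7 FERM-domain phosphatases and partners of Ptpn3, 2 were called in each comparison with treated hearts. Over all genes 19.3% were called against HFpEF-Veh and 5.86% against Control-Veh. Vcp, the ATPase that Ptpn3 acts on, rose after TYA-018 from 222 to 293 CPM (a log2 difference of 0.40, edgeR adjusted p 0.00988), a call that held without any 1 library. The related phosphatase Ptpn13 did not follow Ptpn3. It was at 3.71 ± 0.654, 1.83 ± 0.180 and 1.85 ± 0.373 CPM in healthy, untreated HFpEF and treated hearts, and was lower than Control-Veh in both (-1.02 and -1.01, edgeR adjusted p 0.0024 and 0.00886). Ptpn14 was also lower in both (-0.37 and -0.38, edgeR adjusted p 0.019 and 0.0408), with the first call lost without V2 or V4 (edgeR adjusted p 0.0501 to 0.0573) and the second without any 1 of C1, C3, C4, V3, V4, T1, T2, T3 and T4 (edgeR adjusted p 0.0532 to 0.097). The protease Adam17 rose in HFpEF-Veh (0.44, edgeR adjusted p 0.00682) and fell after TYA-018 (-0.34, edgeR adjusted p 0.0251, lost without any 1 of V1, V3, T2 and T4 at 0.0509 to 0.0761).

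Markers of other cells moved mostly with HFpEF-Veh, the group in which Ptpn3 was low. All 5 red cell genes rose in HFpEF-Veh and fell after TYA-018, where 21.2% and 19.3% of all genes were called. Of 4 endothelial markers 3 rose and then fell, with sums of 537 to 669 CPM in healthy, 715 to 879 CPM in untreated HFpEF and 523 to 680 CPM in treated hearts. Of 4 fibroblast markers 2 rose in HFpEF-Veh and 3 fell after TYA-018, with sums of 362 to 539, 514 to 731 and 322 to 501 CPM. The sums for dendritic cells were at most 14.8 CPM. All 5 heart muscle markers were called in HFpEF-Veh against Control-Veh (1 higher, 4 lower). After TYA-018 1 of them was called, as higher, and in HFpEF-TYA-018 against Control-Veh 2 were (1 higher, 1 lower). Their sums were 23063 to 32120, 21885 to 23601 and 24214 to 26739 CPM in healthy, untreated HFpEF and treated hearts. Of 18 clock genes, 6 were called in HFpEF-Veh against Control-Veh, 4 after TYA-018 and 1 in HFpEF-TYA-018 against Control-Veh. Over all genes 21.2%, 19.3% and 5.86% were called in these comparisons. Of 11 immediate early genes edgeR called 0 in each comparison, and 1 in each had an unadjusted edgeR p under 0.05. In the same order of comparisons, 5093, 4753 and 3219 of all 14333 genes had such a p. The part of these markers, clock and immediate early genes in the levels of the 7 genes was not tested.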

How the data were processed

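Poly(A) RNA of 12 left ventricles was sequenced, with 4 libraries in each of 3 groups taken from the sample titles. The authors trimmed reads with fastp and quantified them with Salmon 1.6.0 (version from the submitters' processing notes), with its sequence, GC and position corrections, against mouse GENCODE transcripts of GRCm38, and summed transcripts to genes with tximport. The processing notes name the build hg38, a human build, while the gene names are of mouse. The labels and the published methods disagree on read length, layout and number of reads. The authors deposited estimated counts, not normalised, TPM, and effective lengths in bases. All columns of values were used (0 were left out).

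Estimated counts were rounded and fitted with edgeR 4.0.16 in R 4.3.3 (filterByExpr, TMM, quasi-likelihood F test, 1 model of 3 groups over 12 libraries, 9 residual degrees of freedom). A gene was called at a p under 0.05 (F test, adjusted by Benjamini-Hochberg) across the 14333 genes kept, which held 99.98% of counts. CPM are after TMM. Log2 effective lengths were centred per library and tested with limma 3.58.1. The scripts were tested on simulated data. Totals per library limit the precision of counts. The p values set a group difference against the spread between mice within groups, estimated over all 3 groups together.

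The 7 genes, the lists of relatives and markers, and the tests were chosen with earlier results of these data known. Named were the 7 genes, the 3 tested genes most correlated with each, and from each list at most 4 genes called against treated hearts by smallest p, or otherwise the 2 with the highest mean CPM. The alternatives were DESeq2 1.42.0, RLE scaling, no filter, lengths as offset, limma on log2(TPM + 1), other length settings, and leaving out each library. Annotation was GENCODE M21, an earlier release than the authors counted on, so transcript lengths may differ from theirs, and promoters were from RefSeq, GRCm38.p6.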

Additional observations from a re-analysis of the deposited data

Results flagged for a closer look

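Of 42 groups of 4 libraries (the CPM and effective length of each of the 7 genes in each group), 3 held a library far from the other 3, where chance gives about 1 in 20. Cpeb3 was at 52.0 CPM in V4 and at 39.97 to 40.7 CPM in the other HFpEF-Veh libraries. Gpatch8 was at 31.7 CPM in C2 and at 35.3 to 35.6 CPM in the other Control-Veh libraries. The effective length of Gpatch8 was 9273 bases in V4 and 7309 to 7431 bases in the other HFpEF-Veh libraries.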

How the results depend on the processing

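No paired analysis was possible because the 3 groups had no animal numbers in common. The counts of called genes are given in the order HFpEF-TYA-018 against HFpEF-Veh, HFpEF-TYA-018 against Control-Veh and HFpEF-Veh against Control-Veh. They were 2767, 840 and 3033 over all genes and 16, 7 and 20 over the relatives. With lengths as offset they were 1217, 203 and 1445, and 6, 1 and 10. On log2(TPM + 1), 9 and 172 genes were called in the last 2 comparisons, and 0 and 3 relatives. There the split in the first comparison was 2228 higher and 68 lower, against 1280 and 1487 in counts, and in the last 51 and 121, against 1561 and 1472. DESeq2 called 1513 genes and 12 relatives in the second comparison. Leaving out 1 library gave 1481 to 3248, 307 to 808 and 1982 to 3983 genes, and 7 to 19, 1 to 7 and 12 to 26 relatives. Counts of genes moved by over 1.5 times in the first comparison without T1 (1481) or T2 (1630), in the third without C4 (1982), and in the second without C2 (543), C3 (496), C4 (324), T1 (401), T2 (307), T3 (450) or T4 (528). Counts of relatives did so in the first without V3 (10), T1 or T2 (7 each), in the third without C3, C4 (13 each) or V3 (12), and in the second without C2, C3 (3 each), C4 (1), T1 (4), T2 or T3 (2 each). The 2 genes called in effective length were 1 with lengths not centred, with genes of at least 10 CPM only and with a robust fit without trend, and 0 to 2 with 1 library left out. Of the fold changes of the 7 genes, that of Plbd1 against HFpEF-Veh turned to -0.019 with lengths as offset, and that of Cpeb3, -0.03 in counts, was 0.42 there. Under all alternatives together, 332 values of these fold changes moved by less than the spread between libraries and 24 by more, and the cause was not tested. Of 30 calls named for relatives, 15 held without any 1 library.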
